A study of Homo sapiens with 12 samples.

Results

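Transcripts of the enzymes that make and break down polyamines were followed in 2 human T-cell acute lymphoblastic leukaemia lines, HPB-ALL and KOPT-K1, treated with the peptide SAHM1. The 10 genes were taken by name: ODC1, AMD1, SRM, SMS, SAT1, SMOX, PAOX, OAZ1, OAZ2 and AZIN1. All 10 were measured, through 22 of the 41097 probe sets whose platform annotation holds exactly 1 gene symbol, among 19775 genes in all. A further probe set that shares SAT1 with another symbol was not used. MYC, read by 1 probe set, was set beside them.

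The series held 12 Affymetrix arrays. HPB-ALL cells were cultured with 20 µM SAHM1 (3 arrays) or with DMSO, its vehicle (3 arrays), and KOPT-K1 cells likewise (3 and 3), all for 24 hours. SAHM1 is a hydrocarbon-stapled peptide from mastermind-like, made to block the NOTCH transcription complex, and both lines depend on activated NOTCH1. The comparison is with vehicle alone, each line comes from a single leukaemia, and both lines share the medium and the vehicle. Nothing in the labels says that replicates came from separate experiments, so p-values measure the spread between these arrays. Every deposited value was a ratio to the mean of the DMSO arrays of the same line. Levels, differences between lines in DMSO, and the labelled T-cell identity (CD3D, CD3E, CD2, CD5, CD7) could therefore not be read. Values below are log2 ratios, and changes are log2 differences, SAHM1 minus DMSO, ± the standard error of limma's fit (n = 3 arrays per group), called at a Benjamini-Hochberg adjusted p under 0.05 over all genes. They are averages over a culture, in which fewer cells with a transcript and less transcript per cell cannot be told apart.

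Polyamines are small cations that bind nucleic acids and that growing cells make in quantity. Ornithine decarboxylase (ODC1) makes putrescine from ornithine. The spermidine synthase SRM and the spermine synthase SMS then add aminopropyl groups supplied by S-adenosylmethionine decarboxylase (AMD1). SAT1 acetylates spermidine and spermine for export or for oxidation by PAOX, while SMOX oxidises spermine directly. The antizymes OAZ1 and OAZ2 bind ODC1 and send it to the proteasome, and AZIN1, the antizyme inhibitor, an ODC1 relative without activity, frees ODC1 from them. ODC1 is a classic target of MYC, which is itself driven by NOTCH1 in T-cell leukaemia, and MYC with its partner MAX binds the E-box CACGTG.

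The E-boxes near the starts of SRM and ODC1 are shown because they are the letters that MYC and MAX recognise. These were the 2 members called lower in both lines, though the ODC1 call in KOPT-K1 was lost in 17 of 21 alternative fits. Sequences are from RefSeq (GRCh38.p14), 5′ to 3′ on the gene's strand, with the motif in capitals. The first line is the 250 bases before the SRM start (chr1:11060019-11060268, minus strand), in which the motif begins 199 bases before the start. The other lines are 30 bases around each motif at the downstream of the ODC1 starts listed there (chr2:10448024-10448053 and chr2:10447990-10448019, minus strand). These motifs begin 29 bases before and 5 bases after that start, 34 bases apart.
SRM upstream: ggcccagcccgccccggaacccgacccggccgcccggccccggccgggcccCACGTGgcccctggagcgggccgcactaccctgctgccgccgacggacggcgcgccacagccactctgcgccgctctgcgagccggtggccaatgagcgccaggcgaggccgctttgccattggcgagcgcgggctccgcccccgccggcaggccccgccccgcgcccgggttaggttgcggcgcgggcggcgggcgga
ODC1 first E-box: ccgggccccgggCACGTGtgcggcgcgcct
ODC1 second E-box: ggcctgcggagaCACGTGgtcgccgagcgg
The motif was searched in windows of 300 bases, 250 before and 50 after each start. CACGTG reads the same on both strands. Of 35116 such windows in the table, 2548 (7.26%) held it, and of 27305 genes 2396 (8.77%) had it in at least 1 window. Windows were matched for 7 of the 10 members. SRM and ODC1 held the motif, and the windows of AMD1, SMS, SAT1, OAZ1 and OAZ2 did not. AZIN1, PAOX and SMOX were not searched. A match describes letters in this window and shows no binding.

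MYC stood at -0.53, -0.71 and -0.70 on the SAHM1 arrays of HPB-ALL, against -0.08, 0.12 and -0.05 on its DMSO arrays. In KOPT-K1 it stood at -0.69, -0.74 and -0.65 with SAHM1, against 0.02, -0.02 and -0.0041 with DMSO. All SAHM1 arrays lay below all DMSO arrays in both lines. The change was -0.65 ± 0.07 in HPB-ALL (adjusted p = 2.18e-04) and -0.69 ± 0.07 in KOPT-K1 (adjusted p = 6.16e-05). The lines differed by 0.05 (95% interval -0.17 to 0.26, adjusted p = 0.798), so no difference was shown, and differences within that interval remained possible.

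SRM fell in both lines, and further in HPB-ALL in the fit without control levels as covariates. Its SAHM1 arrays in HPB-ALL stood at -0.83, -1.03 and -0.94, against -0.20, 0.17 and 0.01 with DMSO. The KOPT-K1 values were -0.40, -0.35 and -0.44 with SAHM1, against 0.08, 0.00085 and -0.09 with DMSO. No SAHM1 array overlapped the DMSO arrays of its line, and every HPB-ALL SAHM1 array lay below every KOPT-K1 SAHM1 array. SRM was lower by 1.90-fold in HPB-ALL (-0.93 ± 0.09, adjusted p = 1.24e-04) and by 1.31-fold in KOPT-K1 (-0.39 ± 0.09, adjusted p = 0.00993). The response in HPB-ALL minus that in KOPT-K1 was -0.53 ± 0.13 (adjusted p = 0.0138). Set beside MYC, the SRM change was the larger of the pair in HPB-ALL (-0.93 against -0.65) and the smaller in KOPT-K1 (-0.39 against -0.69), a contrast between genes for which no test was made. SRM rests on 1 probe set. Under quantile normalization its KOPT-K1 call (-0.24 ± 0.12, adjusted p = 0.509) and the difference between lines (-0.64 ± 0.17, adjusted p = 0.106) were lost. Its HPB-ALL call was kept there (-0.88 ± 0.12, adjusted p = 0.00394). That setting gives SAHM1 and DMSO arrays the same spread, though their ratios differ in spread. How far this accounts for the lost calls was not tested. With the level of 18S ribosomal RNA on each array as a covariate the HPB-ALL call was lost (adjusted p = 0.0678) and the difference was -0.27 ± 0.16 (adjusted p = 0.433), and it was -0.09 ± 0.17 (adjusted p = 0.889) with the hybridization spikes added.

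SMS, the next synthase in the pathway, fell in HPB-ALL. With SAHM1 it stood at -0.31, -0.41 and -0.40 there, against -0.05, -0.07 and 0.11 with DMSO. In KOPT-K1 the values were -0.13, -0.18 and -0.10 with SAHM1, against -0.03, 0.01 and 0.03 with DMSO. SAHM1 arrays lay below DMSO arrays in both lines, but the test passed in HPB-ALL alone: -0.37 ± 0.06 (adjusted p = 0.00326) against -0.14 ± 0.06 in KOPT-K1 (adjusted p = 0.156). The difference between the lines did not pass (-0.23 ± 0.09, adjusted p = 0.0924), so SMS was not shown to respond differently in them. The HPB-ALL call was lost with the 18S covariate (-0.29 ± 0.10, adjusted p = 0.427) and with 18S and spikes (-0.30 ± 0.10, adjusted p = 0.397). Its single probe set carries the suffix _s_at, which marks probes that can match several transcripts.

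**Figure D1:**
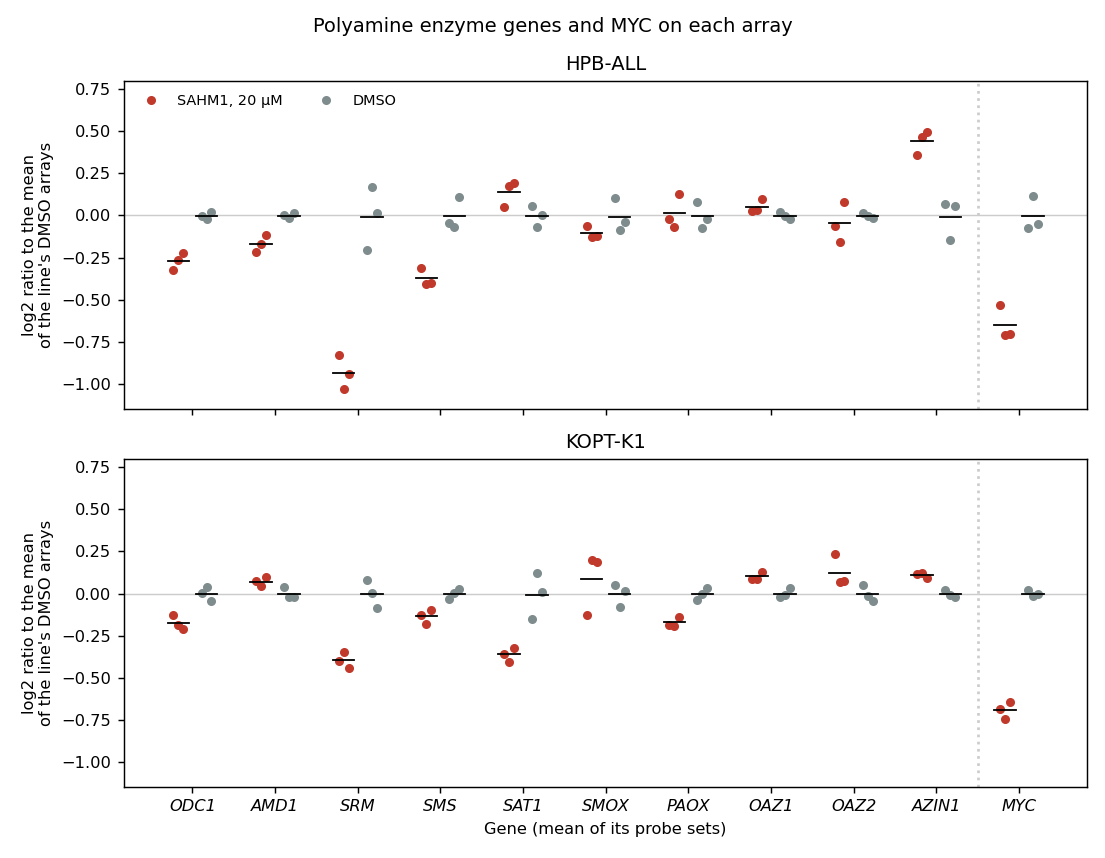
Log2 ratio to the mean of the line's DMSO arrays (y axis) for each polyamine gene and MYC (x axis), in HPB-ALL (top) and KOPT-K1 (bottom); red points are SAHM1 arrays, grey points DMSO arrays (replicates 1 to 3, left to right) and black bars their means. SRM reaches -1.03 in HPB-ALL and -0.44 in KOPT-K1, and MYC lies between -0.74 and -0.53 on all SAHM1 arrays.

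ODC1, the first and most tightly regulated enzyme of the pathway, fell by a small amount. In HPB-ALL it stood at -0.32, -0.26 and -0.22 with SAHM1, against -0.0023, -0.02 and 0.02 with DMSO. KOPT-K1 gave -0.13, -0.19 and -0.21 with SAHM1, against 0.0029, 0.04 and -0.04 with DMSO. The groups did not overlap in either line. The falls were 1.21-fold in HPB-ALL (-0.27 ± 0.06, adjusted p = 0.00983) and 1.13-fold in KOPT-K1 (-0.18 ± 0.06, adjusted p = 0.0437), and averaged -0.22 ± 0.04 (adjusted p = 0.00328). The KOPT-K1 call lay near the threshold and was lost in 17 of 21 alternative fits (adjusted p from 0.0451 to 0.557), 10 of them leaving out 1 array. Those arrays were DMSO replicates 1, 2 and 3 and SAHM1 replicates 2 and 3 of KOPT-K1, and DMSO replicates 1 and 3 and SAHM1 replicates 1, 2 and 3 of HPB-ALL. The HPB-ALL call was lost under quantile normalization (adjusted p = 0.0583), with the 18S covariate (adjusted p = 0.498) and with 18S and spikes (adjusted p = 0.435), and the mean under quantile normalization (adjusted p = 0.0676) and with 18S and spikes (adjusted p = 0.114). The response did not differ between the lines beyond the error (-0.09, 95% interval -0.26 to 0.08, adjusted p = 0.459).

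AMD1 passed the test in neither line. The mean of its 2 probe sets was -0.22, -0.17 and -0.12 with SAHM1 in HPB-ALL, against -6.4e-05, -0.02 and 0.01 with DMSO. In KOPT-K1 it was 0.07, 0.04 and 0.10 with SAHM1, against 0.04, -0.02 and -0.02 with DMSO. The groups did not overlap in either line, lower with SAHM1 in HPB-ALL and higher in KOPT-K1. The changes were -0.17 ± 0.05 (adjusted p = 0.0706) and 0.07 ± 0.05 (adjusted p = 0.392). Their difference passed narrowly (-0.24 ± 0.08, adjusted p = 0.0477), with neither probe set called alone (-0.35 and -0.13, adjusted p = 0.0607 and 0.472), and it was kept in 1 of 20 alternative fits (adjusted p from 0.043 to 0.516). Leaving out any 1 of the 12 arrays lost it (adjusted p from 0.0551 to 0.107).

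Of the enzymes that break polyamines down, SAT1, the inducible acetyltransferase that starts the pathway, fell in KOPT-K1. Over its 3 probe sets it stood at 0.05, 0.18 and 0.19 with SAHM1 in HPB-ALL, against 0.06, -0.07 and 0.01 with DMSO. In KOPT-K1 it stood at -0.36, -0.40 and -0.32 with SAHM1, against -0.15, 0.12 and 0.01 with DMSO. The groups overlapped in HPB-ALL and were apart in KOPT-K1. SAT1 changed by 0.14 ± 0.07 in HPB-ALL (adjusted p = 0.296) and by -0.35 ± 0.07 in KOPT-K1, a 1.28-fold fall (adjusted p = 0.0061). The response in HPB-ALL was higher by 0.50 ± 0.11 than in KOPT-K1 (adjusted p = 0.00728). All 3 probe sets had a difference of the same sign (0.61, 0.47 and 0.42), and 2 of them passed on their own (adjusted p = 0.0453 and 0.0138, against 0.0749 for the last). All 3 carry the suffix _s_at. The KOPT-K1 call was lost under quantile normalization (-0.22, adjusted p = 0.41) and with both 18S and spike levels as covariates (-0.28 ± 0.11, adjusted p = 0.209).

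SMOX and PAOX, the oxidases, passed in neither line. SMOX ranged from -0.13 to -0.06 with SAHM1 and from -0.09 to 0.10 with DMSO in HPB-ALL, and from -0.13 to 0.20 with SAHM1 and from -0.08 to 0.05 with DMSO in KOPT-K1, so that the groups overlapped in both. Its changes were -0.10 ± 0.09 (adjusted p = 0.597) and 0.09 ± 0.09 (adjusted p = 0.505). The SAHM1 arrays of KOPT-K1 were split for this gene, with replicate 1 at -0.13 and replicates 2 and 3 at 0.20 and 0.19. PAOX changed by 0.02 ± 0.07 in HPB-ALL (adjusted p = 0.916) and by -0.17 ± 0.07 in KOPT-K1 (adjusted p = 0.097), where its SAHM1 arrays (-0.18, -0.19 and -0.14) lay below its DMSO arrays (-0.04, -0.0024 and 0.03). Of its 4 probe sets 1 fell in KOPT-K1 (-0.45 ± 0.11, adjusted p = 0.0145), while the others stood at -0.18, -0.05 and 0.01 and were not called. PAOX was thus not shown to change as a gene, and its probe sets disagreed.

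**Figure D2:**
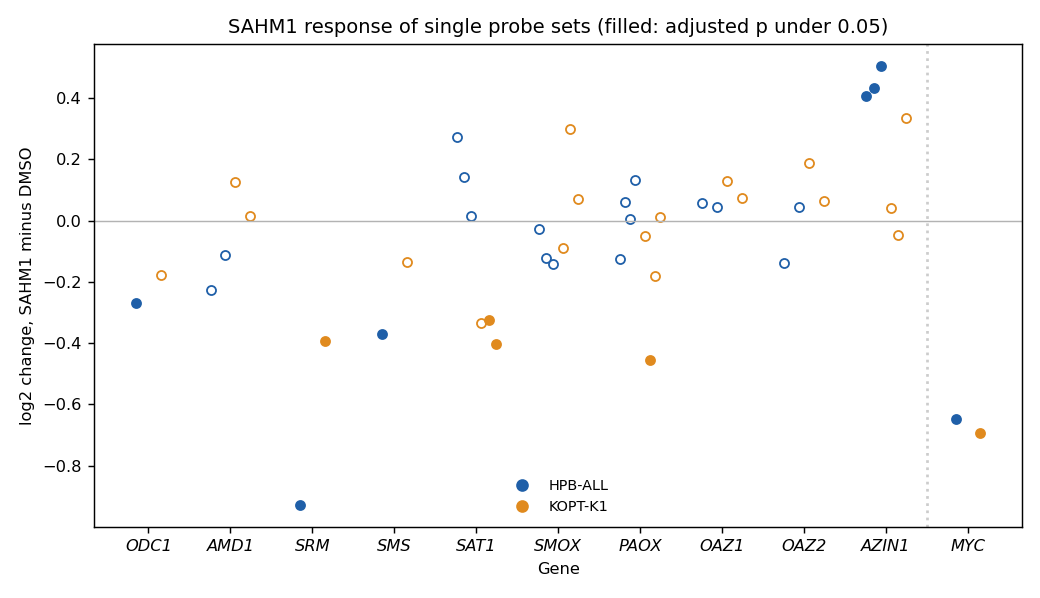
Log2 change, SAHM1 minus DMSO (y axis), of each single probe set of the 10 polyamine genes and MYC (x axis), with HPB-ALL in blue and KOPT-K1 in orange; filled points have an adjusted p under 0.05 over all probe sets. The 3 AZIN1 probe sets are all filled in HPB-ALL (0.41, 0.43 and 0.50), the 3 SAT1 probe sets all lie below 0 in KOPT-K1, and 1 of the 4 PAOX probe sets is apart at -0.45.

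The antizymes passed in neither line, while the antizyme inhibitor AZIN1 rose in HPB-ALL. OAZ1, the main antizyme, stood at 0.03, 0.03 and 0.10 with SAHM1 in HPB-ALL, against 0.02, -0.0014 and -0.02 with DMSO, and at 0.09, 0.09 and 0.13 with SAHM1 in KOPT-K1, against -0.02, -0.01 and 0.03 with DMSO. Its SAHM1 arrays were all above its DMSO arrays, yet the changes were no more than 0.05 ± 0.05 (adjusted p = 0.647) and 0.10 ± 0.05 (adjusted p = 0.197). OAZ2 changed by -0.05 ± 0.07 in HPB-ALL (adjusted p = 0.784), where groups overlapped, and by 0.13 ± 0.07 in KOPT-K1 (adjusted p = 0.247), with SAHM1 replicate 1 at 0.23 and the other two at 0.07. Antizyme activity is set largely in translation, by a frameshift that polyamines promote, which arrays of RNA do not read.

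AZIN1 stood at 0.36, 0.47 and 0.50 with SAHM1 in HPB-ALL, against 0.07, -0.15 and 0.06 with DMSO. In KOPT-K1 it stood at 0.11, 0.12 and 0.09 with SAHM1, against 0.02, -0.01 and -0.02 with DMSO. The groups did not overlap in either line. AZIN1 rose 1.36-fold in HPB-ALL (0.45 ± 0.07, adjusted p = 0.00168), with all 3 probe sets called (0.41, 0.43 and 0.50). This call was lost with the 18S covariate (adjusted p = 0.256) and with 18S and spikes (adjusted p = 0.212). In KOPT-K1 the change of 0.11 ± 0.07 did not pass (adjusted p = 0.285), and its probe sets were spread from -0.05 to 0.33. The difference between the lines was 0.34 ± 0.10 (adjusted p = 0.0303). It passed in 10 of 20 alternative fits (adjusted p from 0.0219 to 0.855) and was lost when DMSO replicate 1 or 2 or SAHM1 replicate 3 of KOPT-K1, or DMSO replicate 2 or SAHM1 replicate 2 or 3 of HPB-ALL, was left out (adjusted p from 0.0525 to 0.0747). With the replicate number as a block its adjusted p was 0.0684.

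Counted over the members, HPB-ALL had 3 of 10 lower (SRM, SMS, ODC1) and 1 higher (AZIN1), against 4.38% and 4.96% of all 19775 genes (9.34% either way). KOPT-K1 had 3 lower (SRM, SAT1, ODC1) and 0 higher, against 13.2% and 5.85% of all genes (19.0% either way). For the mean of both lines 3 were lower (SRM, SMS, ODC1) and 1 higher (AZIN1), against 8.13% and 3.16% (11.3% either way). Both SRM and ODC1 were lower in each line, 2 of 10, against 1.28% of all genes. The ODC1 call in KOPT-K1, on which this count rests, was lost in 17 of 21 alternative fits. The median change of the 10 was -0.07 in HPB-ALL and -0.03 in KOPT-K1, against -0.02 and 2e-05 over all genes. The SAHM1 and DMSO arrays did not overlap for 6 of 10 members in HPB-ALL, 4 lower and 2 higher with SAHM1, against 29.1% of all genes (15.7% lower, 13.4% higher). In KOPT-K1 they did not overlap for 9 of 10, 5 lower and 4 higher, against 35.1% (21.6% lower, 13.5% higher). Among single probe sets 6 of 22 were called in HPB-ALL and 4 of 22 in KOPT-K1, against 5.15% and 14.6% of all probe sets. In the mean of both lines 3 were higher and 3 lower, against 7.62%, and in the difference between lines 4 were higher and 1 lower, against 11.7%. The response differed between the lines for 4 of 10 members, lower in HPB-ALL for SRM and AMD1 and higher for SAT1 and AZIN1, against 16.8% of all genes (5.41% lower, 11.4% higher). Because the members were chosen with earlier results of these data known, these counts are no test of the set.

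**Figure D3:**
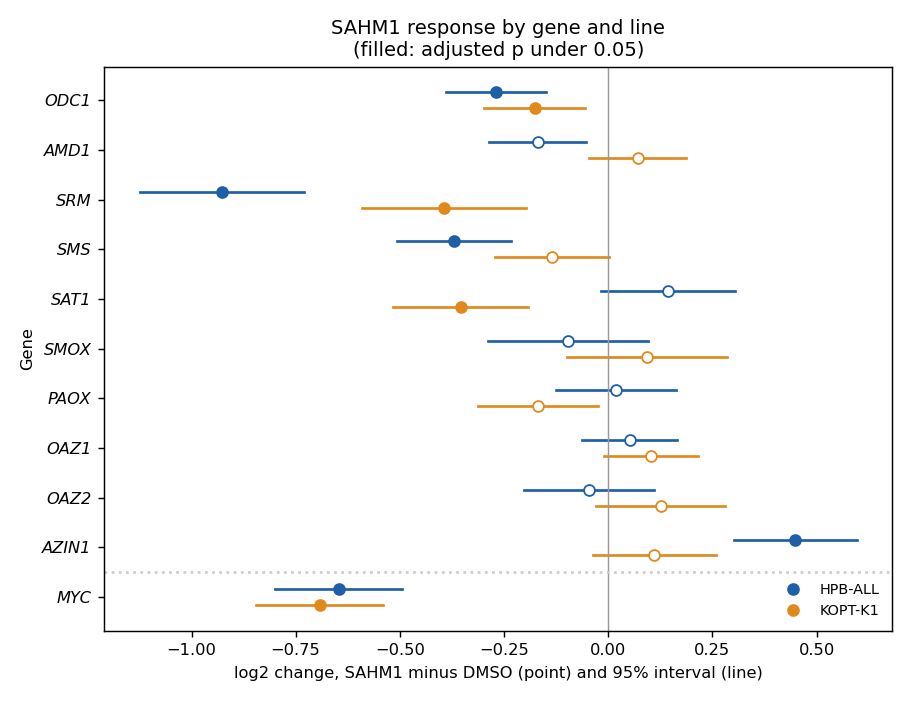
Log2 change, SAHM1 minus DMSO, with its 95% interval (x axis) for each polyamine gene and MYC (y axis), in HPB-ALL (blue) and KOPT-K1 (orange); filled points have an adjusted p under 0.05. The MYC intervals of both lines overlap, while the SRM interval of HPB-ALL (-1.12 to -0.73) lies below that of KOPT-K1 (-0.59 to -0.20).

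Control probe sets differed between SAHM1 and DMSO arrays. The 3 probe sets for 18S ribosomal RNA stood at 1.73, 1.89 and 1.35 on the SAHM1 arrays of HPB-ALL, against 1.05, -1.01 and -1.65 on its DMSO arrays. In KOPT-K1 they ranged from -0.39 to -0.14 with SAHM1 and from -0.17 to 0.13 with DMSO. The 18 hybridization spike probe sets stood at 0.60, 0.85 and 1.05 with SAHM1 in KOPT-K1, against 0.0086, 0.0079 and -0.02 with DMSO. In HPB-ALL they ranged from -0.71 to -0.31 with SAHM1 and from -0.48 to 0.60 with DMSO. DMSO replicate 1 of HPB-ALL, high in 18S, also had the lowest SRM value of its group, and without it SRM changed by -1.03 in HPB-ALL. With the 18S level as a covariate, 0 of 10 members were called in HPB-ALL, where 52 of 19775 genes were. SRM then stood at -0.69 ± 0.13, SMS at -0.29 ± 0.10, ODC1 at -0.24 ± 0.09, AZIN1 at 0.40 ± 0.12 and MYC at -0.58 ± 0.12 (adjusted p = 0.0919 for MYC). All 5 kept their direction, with changes smaller in size and wider errors. Without the covariate the changes in HPB-ALL were -0.93, -0.37, -0.27, 0.45 and -0.65, in the same order.

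**Figure D4:**
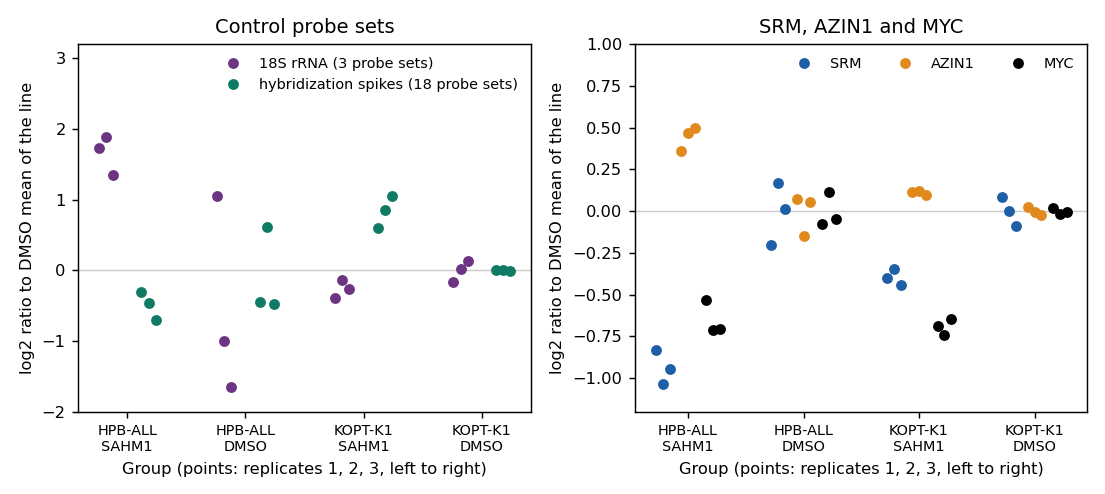
Log2 ratio to the DMSO mean of the line (y axis) by group (x axis) for 18S and spike control probe sets (left) and for SRM, AZIN1 and MYC (right); points are replicates 1 to 3, left to right. The 18S points of HPB-ALL lie between 1.35 and 1.89 with SAHM1 and spread from -1.65 to 1.05 with DMSO, and the spikes of KOPT-K1 lie between 0.60 and 1.05 with SAHM1, above its DMSO arrays.

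Other genes around the pathway were read in 4 lists. Of 11 genes that supply ornithine and S-adenosylmethionine or salvage methylthioadenosine, the by-product of both synthases, 0 rose and 1 fell in HPB-ALL, 0 rose and 2 fell in KOPT-K1, and 0 rose and 3 fell in the mean. Over all genes 4.38% were lower in HPB-ALL, 13.2% in KOPT-K1 and 8.13% in the mean, so that 1 and 2 of 11 lie near the share of all genes in each line. MAT2A, which makes S-adenosylmethionine, stood at -0.48, -0.56 and -0.41 with SAHM1 in HPB-ALL, against -0.03, 0.02 and 0.01 with DMSO. It fell in both lines, by -0.48 ± 0.06 in HPB-ALL (adjusted p = 5.65e-04) and by -0.28 ± 0.06 in KOPT-K1 (adjusted p = 0.00773), where its SAHM1 arrays were at -0.21, -0.34 and -0.28 and its DMSO arrays at -0.01, 0.03 and -0.02. The 2 MAT2A probe sets carry the suffix _s_at, and genes of this list were not followed through the alternative fits. MTAP, the phosphorylase of the salvage route, fell in KOPT-K1 (-0.19 ± 0.06, adjusted p = 0.0385). Its probe sets there disagreed, from -0.46 to 0.40, and 2 of 6 were called. OAT, which links ornithine to glutamate, passed in the mean only (-0.15 ± 0.04, adjusted p = 0.0251). The median of the list was -0.05 in HPB-ALL and -0.12 in KOPT-K1.

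Of 10 listed transport genes 8 were measured, of which 1 was called in HPB-ALL and 2 in KOPT-K1, against 9.34% and 19.0% of all genes. SLC3A2, the heavy chain of several amino acid exchangers and a reported carrier of polyamines, stood at 0.39, 0.31 and 0.43 with SAHM1 in HPB-ALL, against -0.06, 0.08 and -0.02 with DMSO. In KOPT-K1 it stood at -1.50, -1.68 and -1.95 with SAHM1, against 0.01, -0.01 and 0.0035 with DMSO, so the groups did not overlap in either line. It rose by 0.38 ± 0.09 in HPB-ALL (adjusted p = 0.0256) and fell 3.27-fold in KOPT-K1 (-1.71 ± 0.09, adjusted p = 2.91e-07), with opposite directions in the 2 lines. SLC3A2 rests on 1 probe set, which carries the suffix _s_at. Alternative fits were read gene by gene for the members and MYC only, so its calls were not followed through them. ATP13A3, a P-type ATPase that takes up polyamines, was at 0.18 ± 0.09 in HPB-ALL (adjusted p = 0.283) and fell in KOPT-K1 (-0.44 ± 0.09, adjusted p = 0.00481). Of its 2 probe sets 1 carried both the KOPT-K1 call (-0.69, the other at -0.20) and the difference between lines (1.14, the other at 0.10). No other transport gene passed in either line.

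Of 4 listed relatives of the members 3 were measured, of which 0 were called in HPB-ALL and 1 in KOPT-K1, against 9.34% and 19.0% of all genes. AZIN2, a second antizyme inhibitor, rose in KOPT-K1 (0.42 ± 0.08, adjusted p = 0.00339), against 0.05 ± 0.08 in HPB-ALL (adjusted p = 0.793). Its 2 probe sets stood at 0.57 (called) and 0.27 (not called) in KOPT-K1. The response of AZIN2 was lower in HPB-ALL than in KOPT-K1 by 0.37 on the log2 scale (adjusted p = 0.0405), the reverse of the order seen for AZIN1. The SAHM1 and DMSO arrays overlapped in both lines for the AZIN2 probe set that was not called. AZIN2 was not followed through the alternative fits, and the AZIN1 difference passed in 10 of 20 of them. OAZ3 and SAT2 were not called. Of 5 listed genes for eIF5A and its hypusine, a modification built from spermidine, 4 were measured. By limma 0 were called in either line. At an unadjusted p under 0.05, 0 of 4 passed in HPB-ALL and 2 of 4 in KOPT-K1. At that threshold 4345 and 6509 of all 19775 genes passed. Adjusted calls were made for 9.34% and 19.0% of all genes, shares at which 0 of 4 is no result about the list. EIF5A itself stood at -0.16 ± 0.10 in HPB-ALL (adjusted p = 0.405) and -0.24 ± 0.10 in KOPT-K1 (adjusted p = 0.117).

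By the root mean square difference of log2 ratios over the 12 arrays, the genes most like ODC1 were BTN3A2 (0.032), UXS1 (0.035) and TMEM97 (0.039). Those most like SRM were IGFBP2 (0.119), LY6E (0.128) and BNIP3 (0.140). BNIP3 changed by -0.98 in HPB-ALL and -0.38 in KOPT-K1, close to the -0.93 and -0.39 of SRM. The distances describe these arrays only.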

How the data were processed

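Per the submitters' processing notes, the arrays were processed with RMA, with no version named. What the authors deposited is a linear ratio per probe set and array: the DMSO mean of each line was 1 in 54675 of 54675 probe sets (tolerance 1e-06). The deposited ratios were log2-transformed without a pseudocount, and no filter on low values was possible. Symbols came from the supplied platform annotation (41097 probe sets with 1 symbol, 1801 with several, 11777 unnamed), and log2 values of a gene's probe sets were averaged. Limma 3.58.1 in R 4.3.3 (lmFit, eBayes, two-sided) was fitted to all 12 arrays and 4 groups (8 residual degrees of freedom), by gene and by probe set, with Benjamini-Hochberg adjustment over the whole table. The steps were tested on simulated data. No arrays were identical, and their number limits the precision (median standard error within a line 0.085). Alternatives were 2 normalizations, the median of probe sets, leaving out _x_at and _s_at probe sets, a replicate block, separate fits, control levels as covariates, robust eBayes and leaving out each array. Members and lists were chosen with earlier results of these data known. Named genes were all members, MYC, called genes of the lists and the 3 nearest neighbours of ODC1 and SRM.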

Additional observations from a re-analysis of the deposited data

Results flagged for a closer look

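The response to SAHM1 differed between the lines, by a test of the difference itself, for 4 of the 10 genes, against 16.8% of all genes. The response in HPB-ALL minus that in KOPT-K1 was -0.53 on the log2 scale for SRM, 0.50 for SAT1, 0.34 for AZIN1 and -0.24 for AMD1. The difference passed in 17 of 20 alternative fits for SRM, 16 of 19 for SAT1, 10 of 20 for AZIN1 and 1 of 20 for AMD1. In all 4 it was lost under quantile normalization, and likewise when 18S was a covariate. In the first of these settings all arrays are given the same spread, and its part in the losses was not tested. The part that 18S and the spikes play in these differences was not tested further.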

How the results depend on the processing

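Of 886 gene values refitted under the alternatives, 0 called values changed sign, and 17 values that passed in neither fit did. Quantile normalization, which gives all arrays the same spread, left 417 called genes in HPB-ALL, 136 in KOPT-K1, 294 in the mean and 211 in the difference, and 3, 0, 1 and 0 of the 10 members (against 1846, 3761, 2232 and 3323 genes and 4, 3, 4 and 4 members). The standard deviation of an array's log2 ratios averaged 0.31 with SAHM1 and 0.12 with DMSO in KOPT-K1. In HPB-ALL it averaged 0.24 and 0.14. Equal spreads widen the DMSO ratios and narrow the SAHM1 ratios. How far this accounts for the calls lost under this setting was not tested. Without _x_at and _s_at probe sets, where SMS, SAT1, OAZ1 and MYC are not measured, 1019, 2498 and 1242 genes were called in HPB-ALL, KOPT-K1 and the mean, and 1 member in KOPT-K1 and 2 in the difference. With the 18S covariate 52, 752 and 324 genes were called in HPB-ALL, the mean and the difference, and 0 members in HPB-ALL and in the difference. With the spikes added, 39, 597, 397 and 68 genes and 0, 1, 2 and 0 members were called in HPB-ALL, KOPT-K1, the mean and the difference. Leaving out 1 array gave 913 to 2012 genes in HPB-ALL, 2528 to 3885 in KOPT-K1, 1532 to 2203 in the mean and 2341 to 3369 in the difference, and 4 to 4, 2 to 3, 4 to 4 and 2 to 3 members. The difference was called for 2 members without DMSO replicate 1 or 2 or SAHM1 replicate 3 of KOPT-K1, or DMSO replicate 2 or SAHM1 replicate 2 or 3 of HPB-ALL. The HPB-ALL count fell below 1846 by over 1.5 times without DMSO replicate 2 (915) or 3 (996) or SAHM1 replicate 1 (1124), 2 (913) or 3 (1117) of that line. The replicate numbers showed no sign of pairing: same-numbered arrays had deviations correlated between -0.05 and 0.07, and different-numbered arrays between -0.08 and 0.06. Such correlations cannot exclude that same-numbered arrays came from cultures set up together. With the replicate block 1261, 3071, 1692 and 2616 genes and 4, 2, 4 and 2 members were called in HPB-ALL, KOPT-K1, the mean and the difference. The causes of these changes were not tested.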
